A study of Mus musculus with 8 samples.

Results

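Cytosolic ribosomes are built from ribosomal RNA and a fixed set of small basic proteins, and the genes of these proteins are among the most transcribed in any growing tissue. In mammals many of their messenger RNAs start with a C followed by a run of pyrimidines, the 5′ terminal oligopyrimidine tract, through which mTORC1 and the RNA-binding protein Larp1 control how much of the message is translated. In skin, mouse mutants of several of these genes are known for dark pigmentation of ears, feet and tail or for white belly spots.

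The members were the rows of the deposited gene table whose symbol begins with Rpl or Rps directly followed by a digit, together with Rplp0, Rplp1, Rplp2 and Rpsa, without the S6 kinases and without names that carry the pseudogene mark -ps. The rule used names only and found 89 of 19126 rows. All 46 large-subunit and all 31 small-subunit protein genes on the lists were among them, and 12 further members were paralogues, retrocopies or genes with similar names. Rps19bp1 is 1 of these 12 and encodes a protein that binds Rps19, not a subunit of the ribosome.

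The study took RNA from 8 left ears. The donors were C57BL/6 mice (a common inbred strain) of 6 to 8 weeks, in which the contact sensitiser dinitrofluorobenzene (DNFB) had produced an allergic dermatitis. In the inhibitor group were 4 mice given 10 mg/kg of intraperitoneal MMP-9-IN-1, a small-molecule inhibitor of matrix metalloproteinase 9, and the vehicle group held 4 mice injected with an equal volume of its solvent of 10% DMSO, 40% PEG300 and 50% PBS. Both groups carried the same background: 25 µL of 0.3% DNFB at the start, then 10 µL of 0.25% DNFB on the left ear from day 6, with 4 days of treatment before collection. Ears without DNFB were not analysed here, so the comparison speaks only of inhibitor against solvent in an inflamed ear.

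Each library held between 13863145 and 18512200 counted reads, and oligo(dT) beads had selected the polyadenylated RNA. Markers of skin, muscle and blood cells stood at unequal levels between the ears. All 14 epidermal keratinocyte markers were detected, with a summed level of 17156 to 26183 TPM (a level per gene length, scaled to the same sum in each library) in inhibitor ears and 11244 to 28850 TPM in vehicle ears. The 20 neutrophil markers summed to 4181, 30022, 4680 and 6097 TPM in inhibitor mice 1 to 4, against 37875, 43365, 5769 and 6188 TPM in vehicle mice 1 to 4. The 8 red blood cell markers followed the same libraries, with 245 to 6070 TPM in inhibitor ears and 286 to 22554 TPM in vehicle ears, and the 20 skeletal muscle markers ranged over 607 to 6573 TPM and 463 to 3118 TPM. In whole ears, fewer cells of a type and less RNA per cell cannot be told apart.

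Ribosomal protein messages filled a large and steady part of every ear. The 89 members together made up 22.0%, 22.1%, 23.6% and 21.2% of TPM in inhibitor mice 1 to 4, against 20.4%, 21.0%, 22.9% and 22.9% in vehicle mice 1 to 4. The lowest share was that of vehicle mouse 1 and the highest that of inhibitor mouse 3, and the groups overlapped. The means were 22.2% ± 0.98 in inhibitor ears and 21.8% ± 1.29 in vehicle ears (SD, n = 4 each), a difference of 0.467 percentage points that is smaller than either SD. In the mice that share a number, the inhibitor ear was 1.63, 1.14 and 0.723 points above the vehicle ear for mice 1, 2 and 3, and the difference was -1.63 points for mouse 4. Leaving out vehicle mouse 1 brought the difference to -0.0012 points and leaving out inhibitor mouse 3 to 0.0174 points, so 1 library decides its size.

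The large subunit accounted for 12.9% ± 0.57 of TPM in inhibitor ears and 12.6% ± 0.66 in vehicle ears, and the small subunit for 9.18% ± 0.42 and 9.02% ± 0.63. As a share of reads, which does not correct for the short length of these messages, all members took 9.56% ± 0.54 in inhibitor ears and 9.53% ± 0.31 in vehicle ears (SD, n = 4 each). The 78 mitochondrial ribosomal protein genes, which serve the separate ribosome of that organelle, made up 0.687% ± 0.065 and 0.597% ± 0.085 of TPM.

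**Figure D1:**
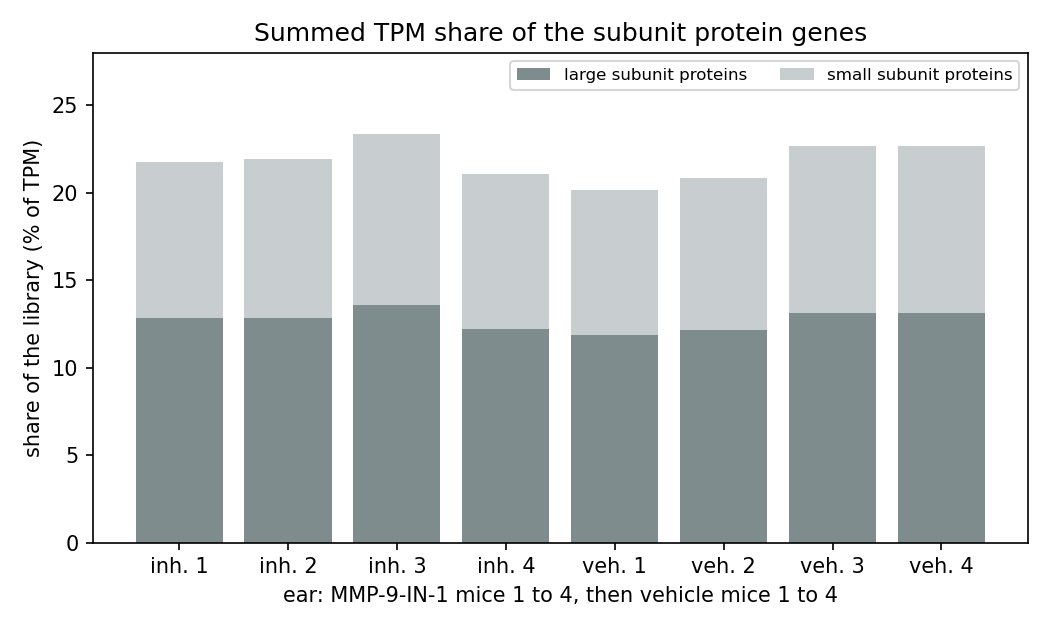
Share of TPM taken by the large-subunit (dark) and small-subunit (light) protein genes in each ear, inhibitor mice 1 to 4 and then vehicle mice 1 to 4; bars are single libraries and start at 0. The summed height lies between 21.1% and 23.4% in inhibitor ears and between 20.2% and 22.7% in vehicle ears.

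Levels differed from gene to gene far more than from ear to ear. Mean levels over the 8 ears had a median of 2600 TPM among the 77 subunit proteins, with quartiles of 1850 and 3291 TPM, against a median of 7.82 TPM over all genes of the table. Of the 77, 69 lay between 1000 and 7000 TPM, and 60 of the 100 genes with the highest mean TPM were members. Small-subunit genes had a median of 2811 TPM and large-subunit genes one of 2424 TPM.

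The top of the order was held by Rpl41, which encodes the shortest protein of the ribosome. It measured 7390, 8468, 9313 and 8021 TPM in inhibitor mice 1 to 4, against 7199, 8384, 9152 and 9257 TPM in vehicle mice 1 to 4. Rps26, whose protein lines the exit channel of the messenger RNA on the small subunit, followed with 7667 ± 526 TPM in inhibitor ears and 8052 ± 1120 TPM in vehicle ears (SD, n = 4 each). Both genes had overlapping groups on this scale, and their means differed by less than the spread between mice.

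Rps27, a small-subunit protein with a zinc finger, averaged 6033 ± 461 TPM in inhibitor ears and 6146 ± 387 TPM in vehicle ears. Rpl23a, which sits at the mouth of the peptide tunnel, averaged 5888 ± 574 and 5926 ± 372 TPM. Rps12 averaged 5841 ± 420 and 5613 ± 561 TPM. These neighbours in the order, Rps27, Rpl23a and Rps12, did not differ beyond their spread.

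At the low end stood Rpl23 with 941 ± 51 TPM in inhibitor ears and 885 ± 94 TPM in vehicle ears, and Rpl22, an RNA-binding protein also known for its part in T cell development, with 601 ± 48 and 516 ± 93 TPM (SD, n = 4 each). Rps20 followed with 376 ± 39 and 344 ± 48 TPM, and Rps15a with 162 ± 5.6 and 166 ± 15 TPM. In reads the order was another: over the 8 libraries Rps15a held 74258 reads and Rps13 65123, at mean levels of 164 and 1379 TPM. Likewise Rps20 held 108770 reads and Rpl38 108580, at 360 and 4489 TPM. The low TPM ranks of Rps15a and Rps20 thus rest on the gene length used in the authors' scaling. Rps6, the small-subunit protein that S6 kinases phosphorylate, was lowest by a wide margin: 35.0, 37.3, 50.3 and 45.3 TPM in inhibitor mice 1 to 4, against 21.6, 23.3, 44.9 and 42.7 TPM in vehicle mice 1 to 4. Vehicle mice 1 and 2 were lowest for Rps6, and the other vehicle ears lay within the inhibitor range.

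**Figure D2:**
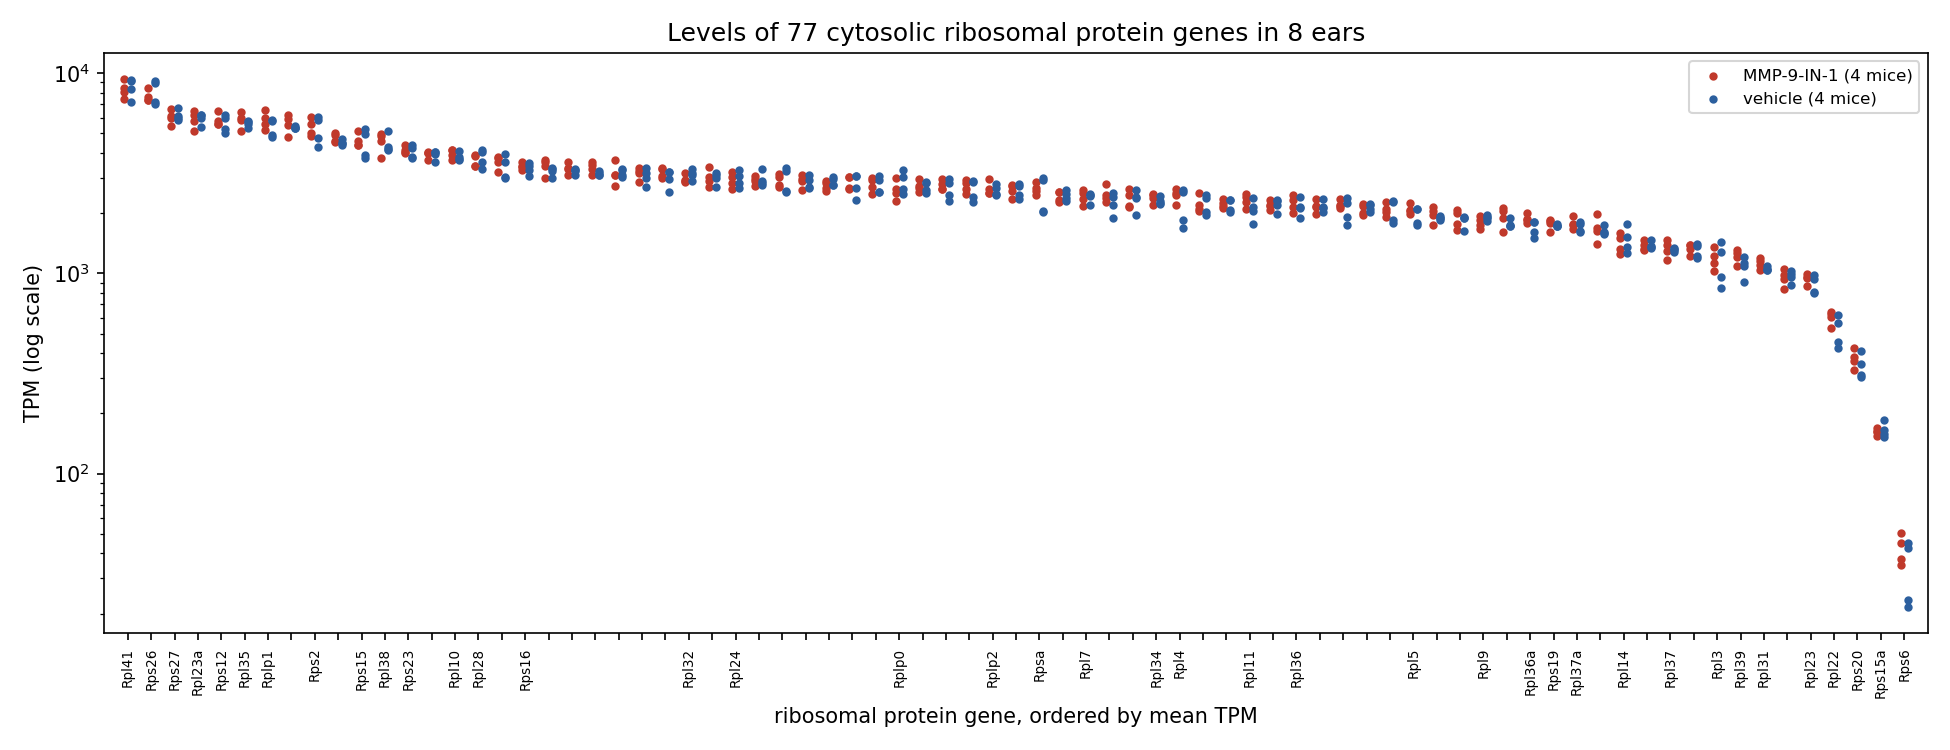
TPM (log scale) of the 77 subunit protein genes in each ear, ordered from the highest to the lowest mean; inhibitor ears are drawn left of vehicle ears, each point is 1 mouse, and genes described in the text are labelled. Most genes lie between 1000 and 7000 TPM with overlapping groups, and Rps6 lies below 100 TPM in every ear.

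The low Rps6 value sat beside a high value for a row that the naming rule leaves out. The row Rps6-ps4, named as a processed pseudogene of Rps6, held 3704, 3658, 4162 and 3979 TPM in inhibitor mice 1 to 4, against 3305, 3598, 4519 and 4164 TPM in vehicle mice 1 to 4. Rps6 was between 0.647% and 1.21% of that row in each ear. In the GENCODE vM21 transcripts, of build GRCm38, all 698 stretches of 50 bases in the Rps6 coding sequence also occur in Rps6-ps4, so a read of the length used here cannot be assigned within that sequence. Added together the rows came to 3918 ± 245 TPM in inhibitor ears and 3929 ± 559 TPM in vehicle ears (SD, n = 4 each), a level inside the range of the other subunit genes.

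Shared sequence was the rule among the members. Of the 77 subunit genes, 29 had every 50-base stretch of their coding sequence in at least 1 other annotated gene, most of them pseudogenes, and the median gene shared 93.1% of its stretches with a median of 10 other genes. Rps2 shared stretches with 68 pseudogenes. Only 23 shared a stretch with another row of the deposited table, and how the authors' counting divided such reads is not given in the sources used here. Whole counts were found for 44 members in every library and fractional counts for 23 in all 8, within a tolerance of 1e-09. These were not the same 23 genes. Of the 23 subunit genes that shared a stretch with another row, 10 had fractional and 8 whole counts in all 8 libraries. Of the 54 that shared none, 9 had fractional and 32 whole counts in all 8.

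A second row of this kind was Rpl31-ps12. It held 1748 to 1956 TPM in inhibitor ears and 1634 to 1792 TPM in vehicle ears, above Rpl31 itself, which held 1035 to 1196 TPM and 1036 to 1090 TPM. The pair shares 62.0% of the Rpl31 stretches. Rpl34-ps1, which shares 72.2% of the Rpl34 stretches, was at most 2.71 TPM. Levels of Rps6, Rpl31, Rpl37, Rps27 and their copies are therefore uncertain in how reads were divided between rows.

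The RefSeq promoter table of build GRCm38.p6 held windows for 69 of the 89 members, 57 of them subunit proteins. A run of at least 6 pyrimidines overlapping the stretch from 5 bases before to 10 bases after an annotated start was found for 32 of 57 subunit genes, or 56.1%, against 27.6% of 27025 genes in the table. On the other strand the same search, which finds purine runs, gave 12.3% of subunit genes against 30.5% of all genes. The windows below show the run in a ribosomal protein gene of each kind named in the results. Each has 15 bases before and 15 bases from the annotated start. The longest run is in capitals, the upstream one where lengths are equal. Rpl35 had the longest run shown, and the rows of Rpl38 and Rps6 are among those that varied most between ears. Rps27rt is a retrocopy of Rps27. Its window holds a further run of 6 pyrimidines, left in small letters, that begins at the annotated start. Rplp0 had no run, and Rpl3l had none at either of its annotated starts, of which the upstream one is shown.
Rpl35, chr2:39005117-39005146, minus strand: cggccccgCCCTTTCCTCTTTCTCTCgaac
Rpl38, chr11:114668565-114668594, plus strand: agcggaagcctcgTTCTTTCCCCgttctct
Rps6, chr4:86857353-86857382, minus strand: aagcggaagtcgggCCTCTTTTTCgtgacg
Rps27, chr3:90213634-90213663, minus strand: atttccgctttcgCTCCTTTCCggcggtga
Rps27rt, chr9:114982725-114982754, minus strand: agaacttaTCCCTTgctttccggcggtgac
Rplp0, chr5:115559452-115559481, plus strand: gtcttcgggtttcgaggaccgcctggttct
Rpl3l, chr17:24727811-24727840, plus strand: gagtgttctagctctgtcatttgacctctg
The first 50 transcribed bases of Rps27 and Rps27rt share an identical stretch of 38 bases. A missing run says only that these letters are not in the annotated window, and annotated starts can lie some bases from the true one.

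Longer motifs were searched on both strands of the whole window, from 250 bases before to 50 after the start. The letters CCGGAAGT, the core bound by ETS-family factors, occurred for 11 of 57 subunit genes, or 19.3%, against 4.31% of all genes. The letters AAGATGGC, of the kind bound by YY1, occurred for 5 subunit genes, or 8.77%, against 3.19%. The TATA box letters TATAAA occurred for 6, or 10.5%, against 15.7%. None of these motifs contains another, and each match describes a sequence and not a bound site.

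No member was called as changed by the inhibitor. Values for the test are CPM, the reads of a gene as a fixed-sum share of its library, which is not corrected for gene length, with library sizes adjusted by the trimmed mean of M-values (TMM), and edgeR's quasi-likelihood test with Benjamini-Hochberg adjustment called 0 of 15096 genes, or 0%, at an adjusted p of 0.05. In total 86 of the 89 members had enough reads to be tested, and the smallest adjusted p of a member was 0.999. At an unadjusted p of 0.05 edgeR found 157 genes, or 1.04% of those tested, and no member. At that unadjusted level DESeq2 found 2 members among 293 of 15096 genes, and limma-voom 1 among 296 of 15096. Limma-trend with TPM found 1 member among 89 of 13887 genes. An edgeR fit that took mouse number into account found 2 among 724 of 15096. Each of these fits tested 86 members and called 0 of them after adjustment.

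The members that failed the filter were nearly silent. Rpl10l, a testis paralogue of Rpl10, had 3 reads in all 8 libraries together, Rpl32l had 19.0 and Rps23rg1, a retrocopy-derived gene, had 17.0. They have no test here.

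The estimates leaned one way under TMM scaling, without separating from the mouse-to-mouse spread. With TMM scaling, 11 of the 86 tested members were higher and 75 lower in inhibitor ears, against 45.5% of all tested genes lower, with a median log2 fold change of -0.11 against 0.03 for all genes. The sign counts moved with the fit. DESeq2 size factors gave 9 higher and 77 lower, total counts 47 higher and 39 lower, and limma-trend on log2(TPM + 1) 62 higher and 24 lower. The median of all genes moved too, to 0.12 with total counts and 0.15 with limma-trend, and the members below that median numbered 78 of 86 with TMM, 79 with DESeq2 size factors, 76 with total counts and 76 with limma-trend. Limma-voom with quality weights, which changes both the method and the weight of each ear, gave 59 higher and 27 lower, with 30 below the median of all genes. Set against the median of all genes in the same fit, the members' median was -0.14 with TMM, -0.14 with DESeq2 size factors, -0.11 with total counts, -0.11 with limma-trend and 0.02 with quality weights.

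Single libraries moved the members' median. The median deviation of the members from their own 8-ear mean was -0.10, 0.10, -0.02 and -0.19 log2 CPM in inhibitor mice 1 to 4, against 0.10, 0.32, -0.11 and -0.10 in vehicle mice 1 to 4, with an SD within groups of 0.17. Vehicle mouse 2 was highest and inhibitor mouse 4 lowest, and the other 6 ears overlapped. Without vehicle mouse 2 the members' median log2 fold change was -0.03, without inhibitor mouse 4 it was -0.06, and without inhibitor mouse 2 it was -0.18. Vehicle mouse 2 was also the ear with the highest neutrophil sum, and the part of that in the median was not tested.

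**Figure D3:**
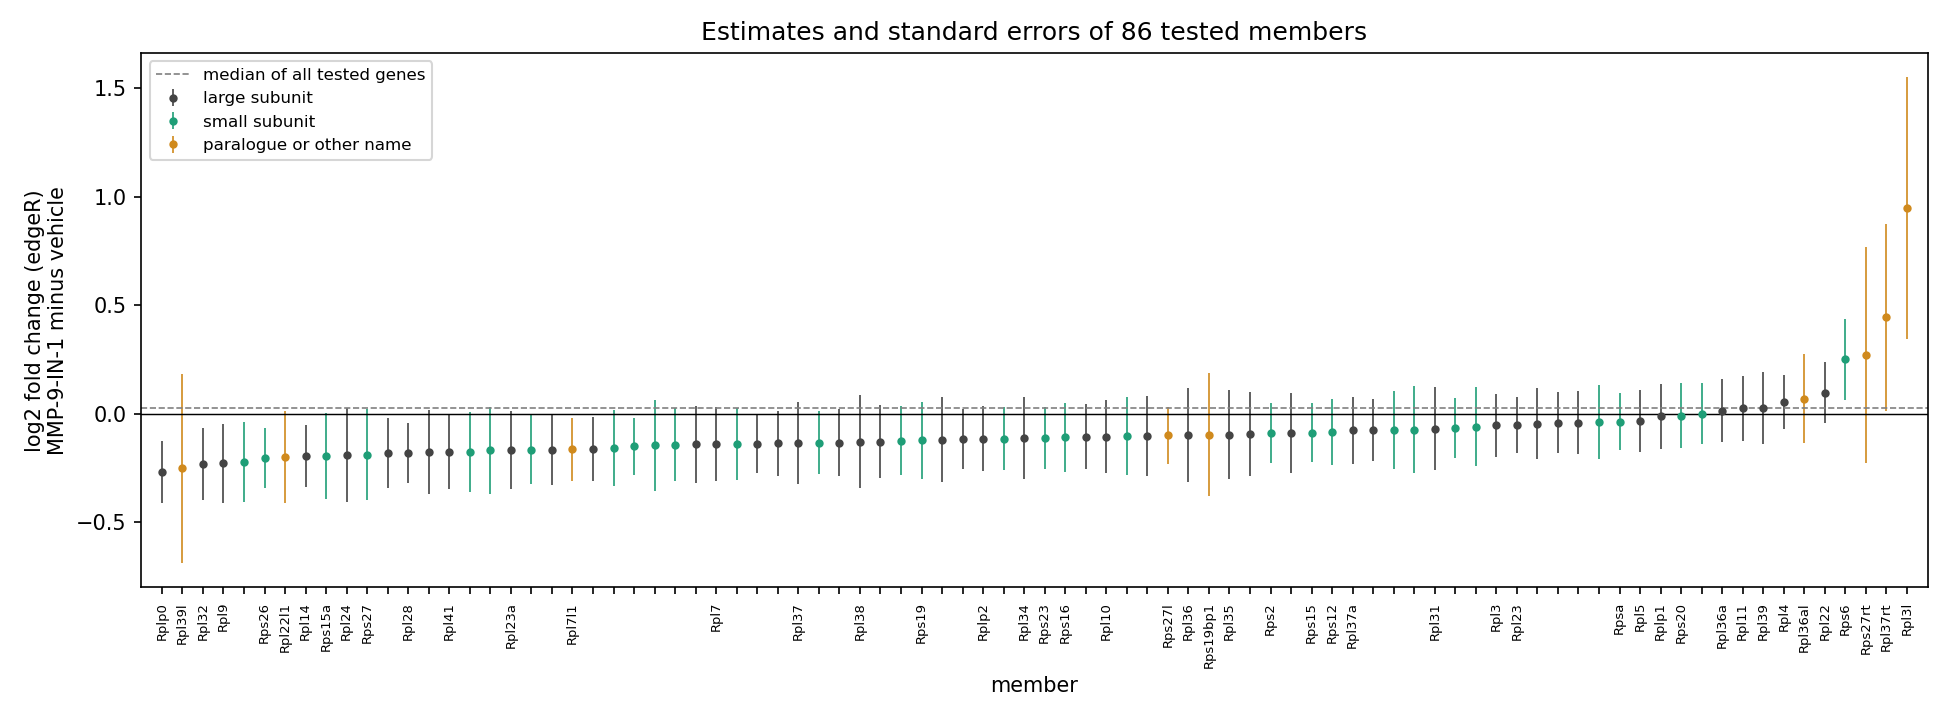
Log2 fold change, inhibitor minus vehicle, of the 86 tested members by edgeR with TMM scaling, ordered from low to high; points are estimates, lines are standard errors, colours mark the subunit, labels mark members described in the text, and the dashed line is the median of all tested genes. With this scaling 75 estimates lie below 0, a count that is 39 with total counts, 78 lie below the dashed line, and no member passed the threshold.

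For the 77 subunit proteins the estimates ran from -0.27 to 0.25 on the log2 scale, with a median standard error of 0.16. All 77 intervals at 95% confidence, taken with 6 degrees of freedom, included 0. Their outer bounds were -0.72, for Rpl24, and 0.71, for Rps6, and the highest bound without Rps6 was 0.44. The intervals reached from 0.31 to 0.53 log2 units to either side of the estimates, which is the precision that 4 mice a group gave.

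The lowest estimate among them belonged to Rplp0, the base of the P stalk, through which the large subunit calls elongation factors. Rplp0 measured 1970, 2069, 2334 and 2040 CPM in inhibitor mice 1 to 4, against 2431, 2904, 2488 and 2312 CPM in vehicle mice 1 to 4. Only inhibitor mouse 3 reached above the lowest vehicle ear. By edgeR its log2 fold change stood at -0.27 ± 0.14 (SE, Benjamini-Hochberg adjusted p = 0.999). The other stalk proteins, Rplp1 and Rplp2, which form the flexible arms, had estimates of -0.01 ± 0.15 and -0.11 ± 0.15.

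Rps26 was among the members whose groups did not overlap in CPM, 2 of 86 tested members against 1.19% of all tested genes. Rps26 measured 1800, 2007, 1992 and 1723 CPM in inhibitor mice 1 to 4, against 2071, 2416, 2052 and 2120 CPM in vehicle mice 1 to 4. The gap between inhibitor mouse 2 and vehicle mouse 3 was narrow, and edgeR estimated a log2 fold change of -0.20 ± 0.14 (SE, Benjamini-Hochberg adjusted p = 0.999). On the TPM scale no member had separate groups.

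The remaining members with small p and lower estimates were all large-subunit genes. Rpl32 had a log2 fold change of -0.23 ± 0.17, Rpl9 of -0.23 ± 0.18, Rpl14 of -0.20 ± 0.14 and Rpl28 of -0.18 ± 0.14. Vehicle mouse 2 was the highest ear for Rpl32, at 1215 CPM against 775 to 910 CPM in inhibitor ears. It was also the highest for Rpl9, at 1109 CPM against 662 to 862 CPM. Vehicle mice 3 and 4 lay inside the inhibitor range for both genes.

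Among the members with higher estimates was Rps6. It had a log2 fold change of 0.25 ± 0.19, with 28.1, 34.5, 40.0 and 35.8 CPM in inhibitor mice 1 to 4, against 21.7, 26.3, 34.9 and 33.4 CPM in vehicle mice 1 to 4. The inhibitor ear was above the vehicle ear of the same number in 4 of 4 pairs, although the groups overlapped. The row Rps6-ps4 with nearly all the reads had an estimate of -0.14 ± 0.14, the other sign. Rpl22 was at 0.10 ± 0.14 and Rpl4, a protein of the tunnel wall, at 0.05 ± 0.13, and both turned negative when only mice 3 and 4 were fitted.

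The members of the 5S particle, Rpl5 and Rpl11, hold the 5S ribosomal RNA and when unassembled bind Mdm2, the ligase that destroys p53. Rpl5 measured 2071, 1990, 2257 and 2059 TPM in inhibitor mice 1 to 4, against 1785, 1751, 2096 and 2104 TPM in vehicle mice 1 to 4. Vehicle mice 1 and 2 were lowest, and the groups overlapped. The edgeR estimates were -0.03 ± 0.14 for Rpl5 and 0.03 ± 0.15 for Rpl11 on the log2 CPM scale.

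Among the genes whose mouse mutants have skin or patterning phenotypes, none differed beyond the spread. Rps19 and Rps20 are known from dark skin mutants in which p53 is stabilised in keratinocytes, Rpl24 from the Belly spot and tail mutant and Rpl38 from the Tail short mutant. Rps19 averaged 1771 ± 107 TPM in inhibitor ears and 1730 ± 23 TPM in vehicle ears, and Rps20 averaged 376 ± 39 and 344 ± 48 TPM. Rpl38 averaged 4538 ± 529 and 4439 ± 466 TPM, and Rpl24 averaged 2925 ± 245 and 2973 ± 268 TPM (SD, n = 4 each). Their log2 fold changes in CPM ran from -0.19 for Rpl24 to -0.01 for Rps20.

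Subunit genes kept nearly fixed proportions to each other. Over the 8 ears the median SD of log2 TPM was 0.12 for the 77 subunit genes, 0.26 for the 78 mitochondrial ribosomal protein genes, 0.43 for all tested genes and 0.44 for the 90 other tested genes above 1000 TPM. In log2 CPM the same medians were 0.19, 0.19, 0.36 and 0.45, so the subunit genes were steadier than the mitochondrial set in TPM and level with it in CPM. These are descriptions, since genes of a library share its depth and scaling.

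When each ear's average over the subunit genes was taken out of log2 TPM, the median SD per gene was 0.10, and 42 of 77 genes were under 0.1 and 76 under 0.2. The steadiest gene was Rpl37a, at 0.03, followed by Rps16 and Rps23, a protein of the decoding centre. Rps6 was the exception at 0.39, and Rpl3, the peptidyl transferase centre protein, came next at 0.20. Rps6 stood 0.61 and 0.55 log2 units below its mean in vehicle mice 1 and 2. Its row held 0.647% to 1.21% of the TPM of Rps6-ps4, in which all its coding stretches also occur. The part of the division of reads between these rows in its spread was not tested.

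In log2 CPM, the scale of the test, the order was another. Rpl24 (SD 0.29), the Rps6 row with its shared sequence (0.29), Rpl36 (0.29) and Rpl38 (0.28) varied most among the subunit genes. Rpl4 (0.06), Rpsa (0.08), the laminin-binding protein of the small subunit, Rpl23 (0.09) and Rps15 (0.11) varied least. Rpl36 measured 460, 607, 494 and 421 CPM in inhibitor mice 1 to 4, against 639, 647, 392.4 and 443 CPM in vehicle mice 1 to 4. Rpsa measured 2796, 3074, 3072 and 2837 CPM in inhibitor mice 1 to 4, against 2757, 3106, 3053 and 3152 CPM in vehicle mice 1 to 4. For Rpl36 the high ears were vehicle mice 1 and 2 and inhibitor mouse 2, whereas the Rpsa values stayed close together in all ears.

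The widest opposed movements apart from Rps6 were those of Rpl24 and Rpl38 against Rpl3 and Rpl4. Rpl24 over Rpl4 was 1.26, 1.38, 1.07 and 1.08 in inhibitor mice 1 to 4, against 1.77, 1.83, 1.11 and 1.03 in vehicle mice 1 to 4. Vehicle mice 1 and 2 stood apart from the other vehicle ears, inhibitor mice 1 and 2 lay between these pairs, and inhibitor mice 3 and 4 lay within the range of vehicle mice 3 and 4. The means of 1.20 ± 0.15 and 1.43 ± 0.42 (SD, n = 4 each) overlapped. Which gene moved depends on the scale: in log2 CPM Rpl4 had an SD of 0.06 and Rpl24 one of 0.29, while in log2 TPM Rpl4 had 0.25 and Rpl24 0.12. The relative change of the ratio between ears is the same on both scales, and the genes were chosen after their values were seen.

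The same vehicle ears had the highest neutrophil and red blood cell sums. Inhibitor mouse 2, with 30022 TPM of neutrophil markers, had the highest inhibitor ratio at 1.38, and inhibitor mouse 1, with 4181 TPM of neutrophil markers, had 1.26. Keratinocyte markers were lowest in vehicle mice 1 and 2, at 12538 and 11244 TPM, against 26272 to 28850 TPM in vehicle mice 3 and 4. The part of these cells in the ratio was not tested.

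**Figure D4:**
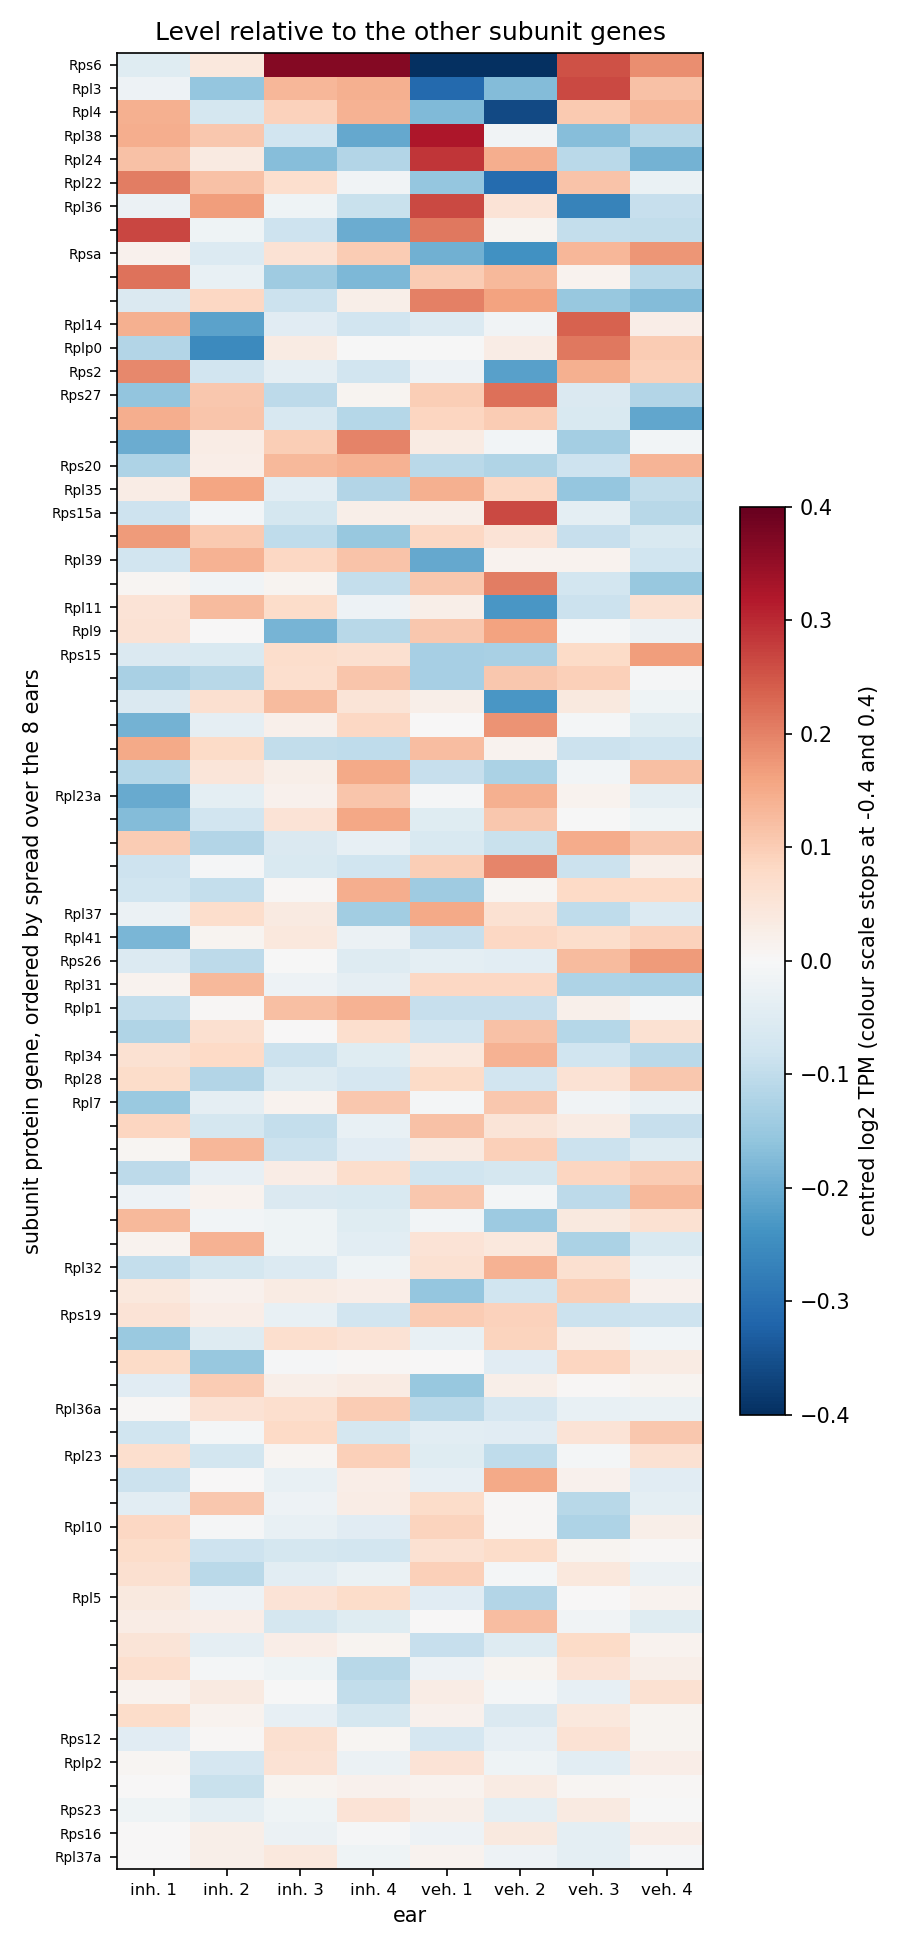
Log2 TPM of each subunit protein gene in each ear after the gene's own mean and the ear's average over the subunit genes were removed, inhibitor ears left of vehicle ears, genes ordered by their SD over the 8 ears, with those described in the text labelled. Rps6 at the top, whose coding sequence is shared with Rps6-ps4, spans the colour range. It lies 0.61 and 0.55 below its mean in vehicle mice 1 and 2. Genes at the foot such as Rpl37a stay near 0 in every ear.

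Rpl3l is the striated muscle paralogue of Rpl3 and replaces it in ribosomes of mature muscle fibres. It measured 8.65, 2.19, 18.7 and 17.4 TPM in inhibitor mice 1 to 4, against 3.93, 1.32, 8.16 and 9.66 TPM in vehicle mice 1 to 4. Mouse 2 was lowest in both groups, inhibitor mice 3 and 4 were above every vehicle ear, and in 4 of 4 same-numbered pairs the inhibitor ear was the higher. The log2 fold change of 0.95 ± 0.60 was the highest among the members and did not pass (edgeR, Benjamini-Hochberg adjusted p = 0.999). No 50-base stretch of its coding sequence occurs in another annotated gene.

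The order of the ears by Rpl3l was close to their order by muscle markers. Summed TPM of the 20 muscle genes was 4161, 607, 6004 and 6573 in inhibitor mice 1 to 4, against 1554, 463, 2443 and 3118 in vehicle mice 1 to 4, and this sum too was higher in the inhibitor ear of 4 of 4 same-numbered pairs. Per TPM of the muscle sum, Rpl3l was higher in the inhibitor ear in 1 pair and lower in 3. With TMM scaling all 20 muscle genes had higher estimates in inhibitor ears, 19 with quality weights, none passed the threshold, and their median log2 fold change was 1.13. Rpl3l spanned 14.2-fold over the 8 ears and the muscle sum 14.2-fold, whereas Rpl3l per 1000 TPM of the muscle sum spanned 1.74-fold, with 2.08 to 3.61 in inhibitor ears and 2.53 to 3.34 in vehicle ears. This ratio was chosen after the values were seen. Rpl3, made in all cells, averaged 1184 ± 137 TPM in inhibitor ears and 1130 ± 274 TPM in vehicle ears.

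**Figure D5:**
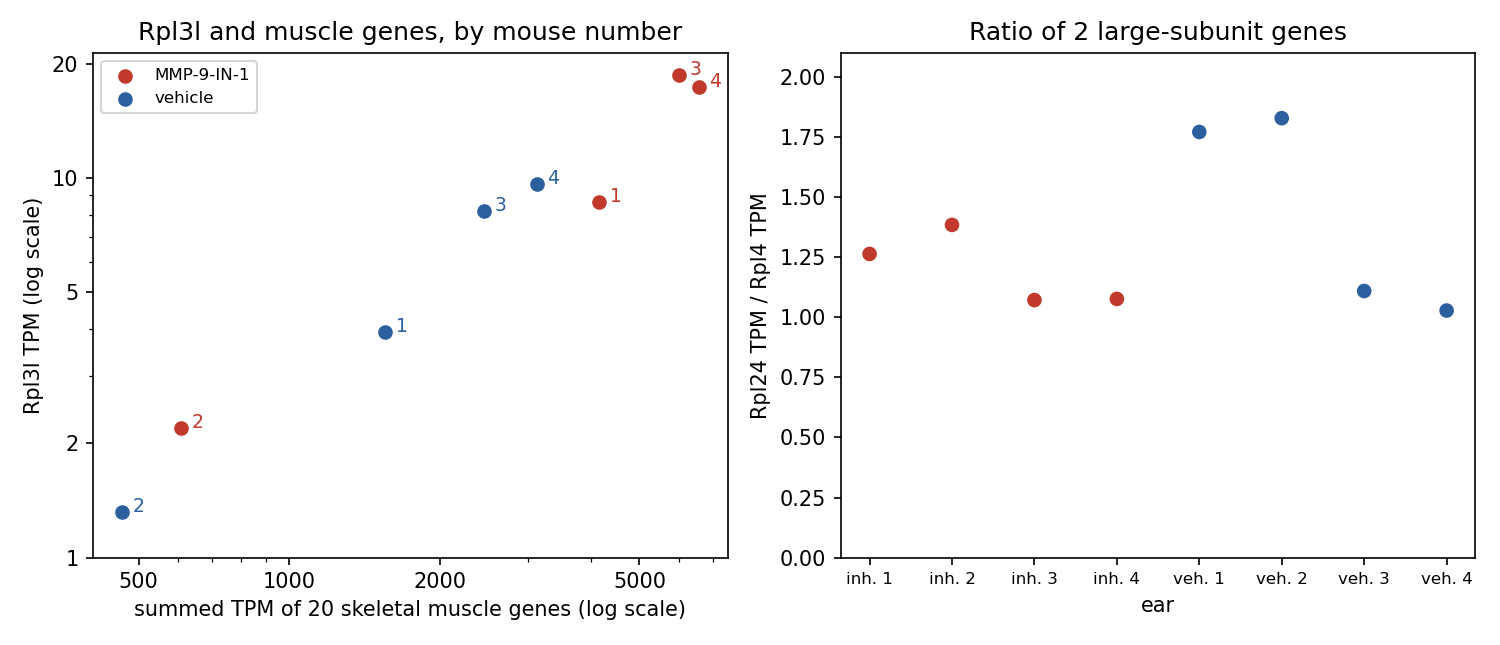
Left, Rpl3l TPM against the summed TPM of 20 skeletal muscle genes, both on log scales, 1 point per ear with its mouse number; right, TPM of Rpl24 over that of Rpl4 in each ear, inhibitor ears left of vehicle ears. Rpl3l and the muscle sum both span 14.2-fold over the ears, and the ratio stands at 1.77 and 1.83 in vehicle mice 1 and 2 against 1.03 to 1.38 elsewhere.

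The other paralogues were set against their parents as log2 TPM ratios in 7 pairs, each with an exact two-sided permutation test over the 70 splits of 8 ears, whose smallest possible p is 0.0286. None passed, and every p adjusted over the 7 pairs was 0.829. For Rpl3l over Rpl3 the difference, inhibitor minus vehicle, was 0.88 (exact p = 0.314), with the ratio higher in the inhibitor ear in 4 of 4 same-numbered pairs. Taken as pairs, the 7 ratios were tested by exact sign flips of the 4 pair differences, a test added after the values were seen, whose smallest possible p of 0.125 cannot reach the threshold. Rpl3l over Rpl3 and Rpl36al over Rpl36a had that p, 0.438 after adjustment over the 7 pairs. Rpl22l1, which can take the place of Rpl22, had a ratio of -1.80 ± 0.47 in inhibitor ears and -1.49 ± 0.22 in vehicle ears, a difference of -0.31 (SD, n = 4 each, exact permutation p = 0.314). For Rpl39l, a testis-enriched paralogue that accounts for few reads here, over Rpl39 the difference was -0.39 (exact p = 0.457).

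Rpl36al stood closest to its parent, at 1156 ± 178 TPM in inhibitor ears and 987 ± 80 TPM in vehicle ears, against 1878 ± 94 and 1685 ± 152 TPM for Rpl36a (SD, n = 4 each). Their log2 ratio differed by 0.06 (exact p = 0.686) and was higher in the inhibitor ear in 4 of 4 same-numbered pairs, by 0.0055 to 0.0884, but coding stretches of both genes are fully shared with other annotated genes. Rps27l, a p53-induced relative of Rps27, averaged 285 ± 7 TPM in inhibitor ears and 275 ± 18 TPM in vehicle ears, and its log2 ratio to Rps27 differed by 0.08 (exact p = 0.486). Rpl7l1, a nucleolar relative of Rpl7 that acts in ribosome assembly, averaged 57.5 ± 4.9 and 57.9 ± 5.3 TPM, with a ratio difference of -0.02 (exact p = 0.829).

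Rps27rt, the retrocopy of Rps27, measured 65.6, 84.0, 18.5 and 34.2 TPM in inhibitor mice 1 to 4, against 35.5, 46.8, 34.8 and 34.4 TPM in vehicle mice 1 to 4, and all of its coding stretches occur in Rps27. Inhibitor ears held both the highest and the lowest values, and the ratio to Rps27 differed by 0.23 (exact p = 0.743). Rpl37rt, the row that shares 82.2% of the Rpl37 stretches, measured 49.4, 51.0, 38.8 and 38.5 TPM in inhibitor ears, against 46.9, 30.5, 14.9 and 20.3 TPM in vehicle ears. Vehicle mouse 1 lay inside the inhibitor range, and the log2 fold change was 0.45 ± 0.43. Rps19bp1 averaged 59.4 ± 16.1 TPM in inhibitor ears and 56.1 ± 10.0 TPM in vehicle ears.

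Genes that work with the members showed no call either. Fau and Rack1 are subunit proteins under other names, and their log2 fold changes in CPM were -0.21 ± 0.18 and -0.25 ± 0.18. Rack1, a small-subunit protein that also binds protein kinase C, measured 1572, 1462, 1652 and 1467 TPM in inhibitor mice 1 to 4, against 1507, 1743, 1680 and 1628 TPM in vehicle mice 1 to 4. Vehicle mice 1 and 4 lay inside the inhibitor range and the other vehicle ears above it.

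Of 20 translation factors and other messages with a pyrimidine start, 2 were higher and 18 lower, with a median log2 fold change of -0.15 and 0 called; total counts, which put 70.5% of all tested genes higher, gave 10 higher and 10 lower. The smallest p was that of Eif3h, a subunit of the initiation factor eIF3, at -0.27 ± 0.12, followed by Eif3f at -0.23 ± 0.13 and Pabpc1, the poly(A)-binding protein, at -0.20 ± 0.13. Of 37 ribosome biogenesis genes, 8 were higher and 29 lower, against 45.5% of all tested genes lower. Their median was -0.16 and 0 were called, but quality weights turned this to 33 higher and 4 lower. Single libraries moved the count as well. Without vehicle mouse 1 it was 27 higher and 10 lower, and without inhibitor mouse 1 it was 0 higher and 37 lower. Nob1, which trims the end of 18S ribosomal RNA, was at -0.37 ± 0.34, and Pes1, of the large-subunit assembly complex, at -0.24 ± 0.25. Utp4, of the early small-subunit processome, measured 84.9, 53.3, 34.4 and 27.7 TPM in inhibitor mice 1 to 4, against 88.8, 76.6, 36.0 and 31.7 TPM in vehicle mice 1 to 4. In both groups mice 1 and 2 were above mice 3 and 4 for Utp4.

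The 13 genes that set ribosome synthesis, among them Mtor, Myc and Larp1, had 9 higher and 4 lower estimates, a median of 0.03 and 0 called, while mice 3 and 4 alone gave 4 higher and 9 lower. Rps6kb1, the S6 kinase, averaged 27.9 ± 1.7 TPM in inhibitor ears and 25.3 ± 3.4 TPM in vehicle ears, and Maf1, a repressor of RNA polymerase III, averaged 52.9 ± 5.1 and 53.5 ± 5.4 TPM. Of 14 targets and partners of p53, 2 were higher and 12 lower, with 0 called, and with quality weights 8 were higher and 6 lower. Cdkn1a, the cell cycle inhibitor p21, measured 176, 380, 133 and 123 TPM in inhibitor mice 1 to 4, against 655, 787, 132 and 141 TPM in vehicle mice 1 to 4. The high ears for Cdkn1a were vehicle mice 1 and 2 and inhibitor mouse 2, the ears with the most neutrophil markers, and its log2 fold change was -1.33 ± 0.79.

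With TMM scaling 56 of the 78 mitochondrial ribosomal protein genes were higher and 22 lower in inhibitor ears, against 54.5% of all tested genes higher, with a median log2 fold change of 0.06 against -0.11 for the cytosolic members, and 0 were called. With DESeq2 size factors 50 were higher, against 50.6% of all tested genes, and with total counts 74, against 70.5%. Under each of these scalings 50 of 78 lay above the median of all genes, while without vehicle mouse 4 only 35 did. Mice 3 and 4 alone gave 45 higher and 33 lower, against 51.4% of all tested genes higher. Mrps16 had the smallest p of the set, with 103, 89.9, 103 and 105 TPM in inhibitor mice 1 to 4, against 63.1, 54.7, 99.5 and 97.0 TPM in vehicle mice 1 to 4. Vehicle mice 1 and 2 were the low ears, and the log2 fold change of Mrps16 was 0.25 ± 0.12. Whether the mitochondrial and cytosolic sets differ was not tested.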

How the data were processed

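The 8 libraries fall into 2 groups of 4 by their titles, whose mouse numbers mark separate animals. Per the labels' protocols, the RNA was oligo(dT)-selected and read from 1 end for 50 bases by DNBSEQ. The submitters' processing notes name HISAT and GRCm39, and for the counter and the gene annotation nothing is stated. The authors deposited 1 table with estimated counts, TPM and FPKM for each library and 19126 genes. Its counts are expected counts, since 33.7% to 35.3% of a library's deposited values were not whole. The deposited TPM values, which the authors scaled per gene length and to a fixed sum, gave levels, shares and ratios. The FPKM values, scaled by the authors per length and library, were not used, nor were 6 columns of the authors' group means.

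Counts were rounded, filtered with filterByExpr (15096 genes kept) and scaled with TMM factors from 0.815 to 1.08. The test was edgeR 4.0.16 (R 4.3.3), glmQLFit and glmQLFTest, inhibitor minus vehicle with no covariate and Benjamini-Hochberg adjustment over all tested genes at 0.05. The biological coefficient of variation was 41.0%, and a log2 fold change had a standard error of 0.26 in the median gene. The fit was checked on simulated data. Alternatives used DESeq2 1.42.0 and limma 3.58.1, other scalings and filters, log2(TPM + 1), a block for mouse number, leaving out libraries in turn, and mice 1 and 2 or mice 3 and 4 only. Paralogue ratios were log2 of TPM + 0.01. Shared stretches were searched on both strands of the GENCODE vM21 transcripts.

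Same-numbered mice deviated together: the correlations of their deviations from the group means were 0.397, 0.710, 0.673 and 0.682 for mice 1 to 4. Every one exceeds 0.1, but no correlation between mice of unlike number is given for comparison. The values therefore cannot tell pairing by number from a wider split of the ears shared by both groups. No label says what a number marks, and the block stayed an alternative.

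Members and lists were chosen with earlier results of these data known. Genes were named by a rule: the 5 members highest and the 5 subunit proteins lowest in TPM, the 6 members with the smallest p in each direction, members outside the subunit lists with at least 10 reads, the skin-mutant, 5S and stalk genes, the 4 most and 4 least variable subunit proteins in CPM, and up to 3 genes by p from each related list. Rpl3, Rps2, Rps16, Rps23, Rpl35, Rpl37a and the parents of paralogues were named outside it, after their values were seen. Values of some genes are not reported here.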

Additional observations from a re-analysis of the deposited data

Results flagged for a closer look

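In groups of 4, a value was singled out where its gap to the nearest ear, over the whole range, exceeded Dixon's critical value of 0.829. This held for 5 of 90 groups examined, and chance gives about 1 in 20. All 5 concern vehicle mice 1 and 2, the vehicle ears with the highest neutrophil and red blood cell sums, and the part of those cells was not tested.

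Rpl38, whose loss gives the Tail short phenotype, stood at 5130 TPM in vehicle mouse 1, where the nearest vehicle ear had 4299 TPM. Rps19, a small-subunit protein, stood at 1764 TPM in vehicle mouse 2, just above the next vehicle ear at 1722 TPM, so its gap is small in absolute terms. The retrocopy Rps27rt stood at 46.8 TPM in vehicle mouse 2, where the next vehicle ear had 35.5 TPM. In the same mouse the log2 TPM ratio of Rpl22l1 to Rpl22 was -1.17, against -1.56 in the nearest vehicle ear, and that of Rps27l to Rps27 was -4.73, against -4.42.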

How the results depend on the processing

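No alternative called a member, including an adjusted p of 0.1. The replicate block called 0 genes, with a members' median log2 fold change of -0.10, and changed no call. With same-numbered mice as pairs, exact sign flips gave the 7 paralogue ratios adjusted p from 0.438 to 0.75, in a test that 4 pairs cannot pass. Fitted to mice 3 and 4 only, Rpl22 was at -0.0298, Rpl4 at -0.0196 and Rps27rt at -0.40, each the other sign from all 8 ears, and limma-voom with quality weights put Rps27rt at -0.26. The cause was not tested. Leaving out each library in turn gave ranges that crossed 0 for the log2 fold change of Rps27rt, from -0.20 to 0.56, and for the log2 ratios to the parent of Rpl36al (-0.051 to 0.16), Rpl7l1 (-0.10 to 0.0679), Rps27l (-0.0017 to 0.13) and Rps27rt (-0.0451 to 0.65). The members' median ranged from -0.18 to -0.03 and the share difference from -0.0012 to 0.83 points. With mice 1 and 2 only the share difference was 1.39 points and the members' median -0.21, and with mice 3 and 4 only they were -0.45 points and -0.01.

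The precision is set by 4 mice a group: the median interval of a subunit gene reached 0.40 log2 units to either side. P-values measure the spread between these mice.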
